A study of Mus musculus with 8 samples.

Results

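The genes described here encode the proteases that cut a Notch receptor on its way to becoming an active transcription factor. They were Furin, the sheddases Adam10 and Adam17, and 5 genes of gamma-secretase, namely Psen2, Ncstn, Aph1a, Aph1b and Psenen. They were chosen by symbol from this role and not from their values, although earlier results of these data were known by then. Of the 23284 mouse gene symbols in the files, 8 are members. All 8 passed edgeR's filter on low counts, which left 12430 genes to test. The 8 genes do not make up every component of the chain.

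Notch receptors are cut in a fixed order. Furin, a proprotein convertase, cleaves the precursor in the secretory pathway, which gives the receptor of the cell surface. After ligand binding, ADAM metalloproteases cut outside the membrane, and gamma-secretase then cuts within it and frees the intracellular domain, which goes to the nucleus and acts with the DNA-binding protein RBPJ. Gamma-secretase is a complex of presenilin, the catalytic subunit, with nicastrin (Ncstn), an APH1 protein (Aph1a or Aph1b) and PEN-2 (Psenen), and it cuts many other membrane proteins besides Notch.

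All libraries came from ID8 IP2, a subline of the mouse ovarian surface epithelial line ID8 obtained by passage through mice. Control lines carried the empty pCCL lentiviral vector. Notch3IC lines carried the same vector with an HA-tagged Notch3 intracellular domain followed by IRES-GFP, a form that needs none of these cuts to act. By the study's description all lines also carried a lentiviral luciferase-mCherry reporter, each set was a separate infection that gave a matched Control and Notch3IC line, and testing after the experiments pointed to mycoplasma in all lines. A line is an infected population grown in culture, and each of Sets 1 to 4 gave 1 library per condition. Polyadenylated RNA was sequenced, and the reads counted on genes totalled 19013578 to 28208072 in the 4 Control libraries and 15524262 to 27107061 in the 4 Notch3IC libraries. In bulk RNA, fewer cells with a transcript and less of it per cell cannot be told apart.

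The labels were checked with Notch3 and the Notch targets Hey1, Heyl and Nrarp, and all 4 were called higher in Notch3IC. Notch3 measured 4319, 467, 9215 and 5839 normalized counts in the Notch3IC lines of Sets 1 to 4. In their Control lines it measured 38.6, 40.6, 70.8 and 42.0. The counts in the Notch3IC lines may include reads of the insert, which were not separated from those of the cell's own gene. Every Notch3IC line was above every Control line, and Set 2 was the lowest of the Notch3IC lines. The libraries of Set 1 stood apart from the others. Across 10361 genes their deviations from the group means correlated at 0.84 with each other, against 0.34, 0.62 and 0.39 within Sets 2 to 4. Every correlation of a Set 1 library with a library of the other condition from Sets 2 to 4 was negative. Given the 0.84, centring on the group means makes these values negative on balance, so their signs add no separate support. Values without Set 1 and without Set 2 are therefore given below for Furin, Psen2 and Aph1b, the members that passed an adjusted p under 0.1 with all libraries in the fit on condition alone or in that blocked on the set, and for 5 genes of the other lists.

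The labelled tissue is ovarian surface epithelium. Of 10 ovarian surface and mesothelial markers all were detected, 9 were tested and 1 was called, Msln (mesothelin), which fell by 2.60 on the log2 scale (edgeR adjusted p = 0.0625). Upk3b, a mesothelial surface protein, had a log2 fold change of -1.72 (edgeR adjusted p = 0.220), and the intermediate filament gene Vim, the most abundant marker, 0.43 (edgeR adjusted p = 0.613). DESeq2 called 4 markers lower. With the set as a block 3 were called lower, Msln, Upk3b (-1.98, edgeR adjusted p = 0.0319) and Krt19 (-2.10, edgeR adjusted p = 0.0288), and 6 of 9 were lower and Vim higher past the adjusted p limit. In that fit 2.53% of all genes were called lower, and 12.1% were lower and 14.9% higher past the adjusted p limit. The median of the 9 log2 fold changes was -0.74. The summed level was 100278 ± 11693 normalized counts in Control and 89599 ± 20193 in Notch3IC (SD, n = 4 libraries each), and without Vim, which was at 48192 ± 25248 in Control and 64940 ± 26643 in Notch3IC, it was 52086 ± 18916 against 24660 ± 7013. Of 7 leukocyte markers, 2 were at 0 in every library and 2 were tested. Their summed level was 91.0 ± 28.7 against 93.0 ± 18.6 normalized counts, most of it Cd68, and 1 was called, Csf1r, at 8.67 ± 2.38 against 24.7 ± 11.0 normalized counts (edgeR adjusted p = 0.0719). For 5 endothelial markers the sum was 24.3 ± 9.98 against 37.3 ± 11.0, and the most abundant was Pecam1. Of the 2 tested with all libraries, none was called by edgeR or DESeq2 or had an unadjusted p under 0.05. The part of these markers in the results below was not tested.

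With condition alone 1 member, Aph1b, passed the adjusted p limit. Its mouse paralog Aph1c lies beside it on the same strand of the same chromosome. The start of the coding sequence of both is given first, since it holds 12 of the 29 edits between their coding sequences. The lines below hold coding bases 1 to 120 from GENCODE M21, with the 14 positions that differ in capitals.
Aph1b: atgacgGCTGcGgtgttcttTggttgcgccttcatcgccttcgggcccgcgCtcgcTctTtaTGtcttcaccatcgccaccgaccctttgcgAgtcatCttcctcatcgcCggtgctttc
Aph1c: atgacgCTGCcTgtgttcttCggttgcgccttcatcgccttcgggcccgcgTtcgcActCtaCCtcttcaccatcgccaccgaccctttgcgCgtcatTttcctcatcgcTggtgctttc

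Over the whole coding sequence, 771 bases in Aph1b and 774 in Aph1c, the identity was 96.3%, with 29 edits between them. In the transcripts, 451 of the 5259 windows of 100 bases in Aph1b, or 8.58%, also occurred in Aph1c. Aph1b shared 0 such windows with Aph1a, whose coding sequence was 62.1% identical. RefSeq lists the symbols Aph1b and Aph1c as synonyms of each other, so which locus a symbol named in the annotation that was counted was not tested.

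None of the 8 genes was called by edgeR at the study's limits, an adjusted p under 0.1 and a log2 fold change outside -1 to 1, against 4.14% of all genes tested in either direction. DESeq2 also called 0. Without the fold limit 1 of 8 passed, Aph1b, against 6.69% of all genes, of which 5% were higher and 1.69% lower, and 1 of 8 had an unadjusted p under 0.05, against 18.4% of all genes. For all 8 the 95% interval of the log2 fold change lay between -1 and 1, which held for 73.5% of all genes. The median log2 fold change was 0.05 for the 8 genes and -0.01 for all genes, and the median size without regard to sign was 0.19 against 0.18. Of the 8, 5 were higher and 3 lower in Notch3IC, a split near that of all genes, of which 6020 were higher and 6410 lower.

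**Figure D1:**
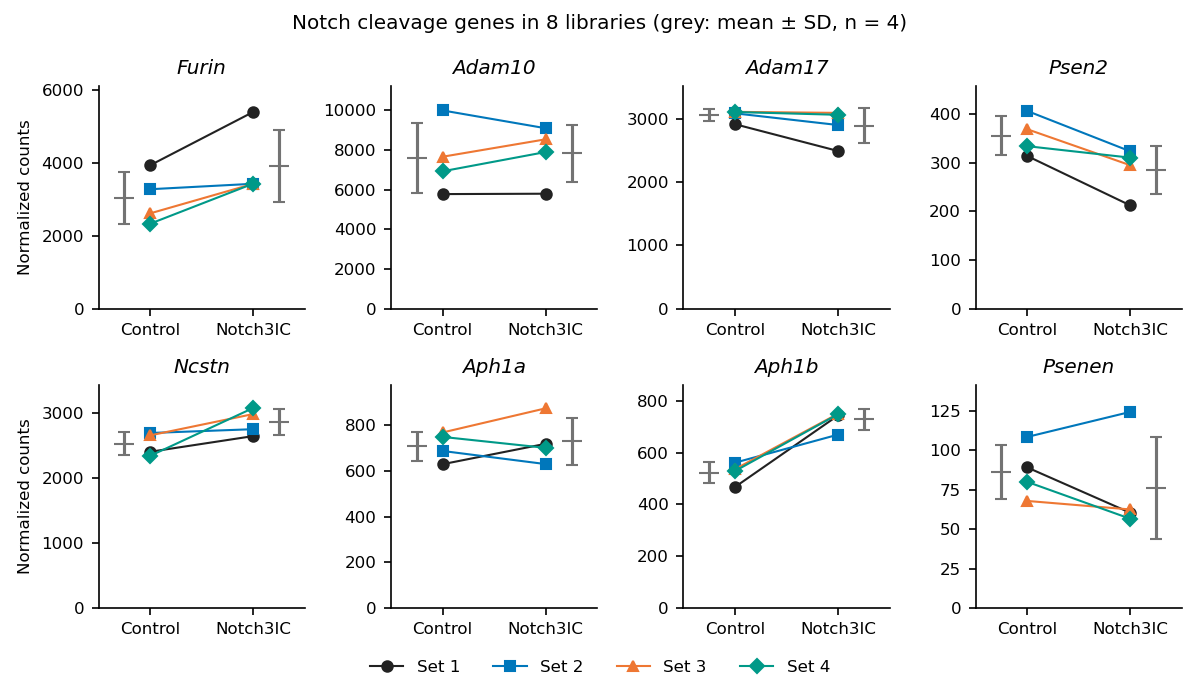
Normalized counts (vertical axes, each from 0) of the 8 genes in the Control and the Notch3IC line of Sets 1 to 4, with lines joining the libraries of a set and grey bars for the mean ± SD of 4 libraries. Only for Aph1b do the Notch3IC values, 669 to 750, all lie above the Control values, 467 to 561, and Furin and Adam10 differ widely between sets within each condition.

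Furin, the convertase of the first cut, measured 3939, 3280, 2617 and 2333 normalized counts in the Control lines of Sets 1 to 4. In the Notch3IC lines it measured 5404, 3430, 3429 and 3435. Each Notch3IC line was above its own Control line, but the groups overlapped, because the Control line of Set 1 exceeded the Notch3IC lines of Sets 2 to 4. The log2 ratios of Notch3IC over Control within the sets were 0.46, 0.06, 0.39 and 0.56. With condition alone the log2 fold change was 0.37 (standard error 0.21, 95% interval -0.12 to 0.85, edgeR adjusted p = 0.407). Blocking on the matched set also gave 0.37 (standard error 0.09, edgeR adjusted p = 0.0495), and Furin then rose, by an amount under the fold limit. The set means of Furin spanned 0.70 on the log2 scale. In that blocked fit the adjusted p was 0.172 without Set 1 and 0.00350 without Set 2, and it reached 0.201 without Set 4.

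Adam10, the main sheddase of ligand-bound Notch, was the most highly counted of the 8 genes. Its Control lines measured 5781, 10003, 7666 and 6932 normalized counts in Sets 1 to 4. Its Notch3IC lines measured 5800, 9103, 8546 and 7905. The ranges almost coincided, with Set 1 the lowest and Set 2 the highest in both conditions. The log2 fold change was 0.05 (standard error 0.20, 95% interval -0.40 to 0.49, edgeR adjusted p = 0.937), and its sign depended on single libraries. Within sets the log2 ratio was -0.14 in Set 2 and 0.16 and 0.19 in Sets 3 and 4.

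Adam17, a sheddase of cytokines, growth factors and their receptors that can also cut Notch, had an even level in Control, with 2911, 3083, 3106 and 3104 normalized counts. In Notch3IC the values were 2488, 2898, 3090 and 3060. Every Notch3IC line was below the Control line of its set, although by only -0.008 and -0.02 on the log2 scale in Sets 3 and 4, and the groups overlapped. The log2 fold change was -0.08 (standard error 0.09, 95% interval -0.29 to 0.12, edgeR adjusted p = 0.702). In linear terms the level in Notch3IC was 0.945 times that in Control (95% interval 0.820 to 1.09).

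Psen2, the presenilin represented among these genes, was the lowest in Set 1 of both conditions. Its Control values were 314, 407, 369 and 334 normalized counts, and its Notch3IC values 212, 324, 295 and 311. Each set was lower in Notch3IC, with log2 ratios of -0.56, -0.33, -0.32 and -0.11, but the Control line of Set 1 lay within the Notch3IC range. With condition alone the log2 fold change was -0.32 (standard error 0.16, 95% interval -0.69 to 0.05, edgeR adjusted p = 0.340). With the set as a block Psen2 fell by 0.33 on the log2 scale (standard error 0.11, edgeR adjusted p = 0.0876). In the blocked fit the adjusted p was 0.203 without Set 1 and 0.0921 without Set 2, and it reached 0.288 without Set 3.

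Ncstn encodes nicastrin, the glycoprotein that binds the substrate of gamma-secretase. It measured 2409, 2699, 2662 and 2347 normalized counts in Control and 2651, 2758, 2992 and 3086 in Notch3IC. All sets were higher in Notch3IC, Set 2 by only 0.03 and Set 4 by 0.39 on the log2 scale, and only the Notch3IC line of Set 1 lay below the highest Control lines. The log2 fold change was 0.18 (standard error 0.09, 95% interval -0.02 to 0.38, edgeR adjusted p = 0.315). With the block the 95% interval was 0.005 to 0.36. The edgeR adjusted p was then 0.135, and 0.0498 without Set 2.

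Aph1a, the more abundant of the APH1 genes, measured 629, 687, 768 and 749 normalized counts in Control and 719, 630, 874 and 701 in Notch3IC. Sets 1 and 3 were higher in Notch3IC and Sets 2 and 4 lower, with log2 ratios of 0.19, -0.13, 0.19 and -0.10. The log2 fold change of 0.05 (standard error 0.12, 95% interval -0.24 to 0.33, edgeR adjusted p = 0.895) was smaller than the spread between sets. On this gene 12.9% of the exon bases are shared with Car14 on the opposite strand, and whether counting used strand is not stated.

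Aph1b was the only member whose groups did not overlap. Its Control lines measured 467, 561, 536 and 529 normalized counts, and its Notch3IC lines 743, 669, 750 and 748. Groups without overlap were found for 1 of 8 members, a share near the 10.8% of all genes tested. Notch3IC was the higher group in 7.08% of all genes and the lower in 3.75%. The means were 523 ± 39.9 and 728 ± 39.0 (SD, n = 4 libraries each), on 457 to 886 reads per library, a 1.39-fold difference (95% interval 1.20 to 1.62). In log2 terms Aph1b rose by 0.48 (standard error 0.09, edgeR adjusted p = 0.0385), in all 4 sets, with log2 ratios of 0.67, 0.25, 0.49 and 0.50. The size of the difference was stable, at 0.41 to 0.55 when each library and each set was left out in turn, but the adjusted p was not. It was 0.0714 without Set 1 and 0.0289 without Set 2, and it was above 0.1 in 6 of 12 such fits, with 0.118 and 0.130 without the Control line of Set 3 or Set 4, 0.114 and 0.138 without the Notch3IC line of Set 3 or Set 4, and 0.316 and 0.382 without Set 3 or Set 4 as a whole. DESeq2 gave a log2 fold change of 0.46 with an adjusted p of 0.000271.

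The paralog Aph1c was low, with a Control mean of 29.6 ± 14.0 and a Notch3IC mean of 37.5 ± 9.08 normalized counts (SD, n = 4 each), with a log2 fold change of 0.35 (edgeR adjusted p = 0.695). The ratio of the normalized counts of Aph1b to those of Aph1a was 0.742, 0.816, 0.697 and 0.706 in the Control lines of Sets 1 to 4. In the Notch3IC lines it was 1.03, 1.06, 0.858 and 1.07, above every Control line. This ratio is within a library and so does not depend on the scaling between libraries, but it is not a ratio of molecules, as the genes differ in length.

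Psenen, whose small product PEN-2 completes gamma-secretase, had the fewest reads, 54 to 101 per library. Its Control lines measured 89.2, 109, 67.9 and 80.0 normalized counts, and its Notch3IC lines 60.4, 124, 62.5 and 56.6. Set 2 was the highest in both conditions and the only set with a positive log2 ratio, 0.20, against -0.56, -0.12 and -0.50 in Sets 1, 3 and 4. The log2 fold change was -0.19 with the widest interval of the 8, -0.88 to 0.50 (standard error 0.30, edgeR adjusted p = 0.799). Without the Notch3IC line of Set 2 it was -0.53 (edgeR adjusted p = 0.197), and without the Control line of Set 2 it was -0.07. Its exons overlap those of U2af1l4 and Gm49396 on the opposite strand, by 9.33% of its exon bases in the first case.

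**Figure D2:**
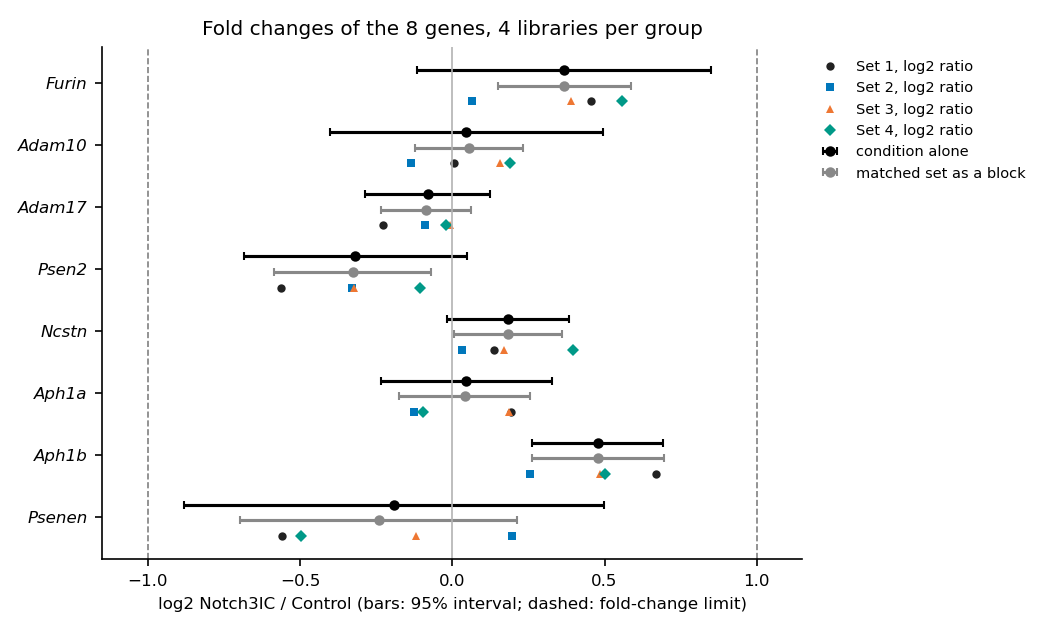
Log2 fold changes of Notch3IC over Control (horizontal axis) for the 8 genes, with 95% intervals from the fit with condition alone (black) and from the fit blocked on the matched set (grey), above the log2 ratio of each set. All intervals lie inside the dashed fold limits of -1 and 1, and with condition alone only that of Aph1b, 0.26 to 0.69, leaves out 0. In the blocked fit those of Furin (0.15 to 0.59), Psen2 (-0.59 to -0.07), Ncstn (0.005 to 0.36) and Aph1b (0.26 to 0.70) leave out 0.

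With the set as a block, 3 of the 8 genes passed an adjusted p under 0.1, against 27.1% of all genes tested. They were Furin and Aph1b, which were higher as were 14.9% of all genes, and Psen2, which was lower as were 12.1%. None passed the fold limit too, against 7.72% of all genes, 5.19% higher and 2.53% lower. The share is close to that of all genes, and the biological coefficient of variation was 14.1% with the block against 26.3% with condition alone. Over 4 sets, 3 of 8 genes (Furin, Ncstn and Aph1b) were higher in Notch3IC every time, against 21% of all genes, and 2 of 8 (Adam17 and Psen2) were lower every time, against 19.4%.

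Levels of different genes can be set side by side only per length, here as normalized counts per kb of exon, with all exons of a gene in GENCODE M21 joined. In Control the order was Adam10 (1546 ± 363), Ncstn (636 ± 44.6), Adam17 (426 ± 13.1), Furin (331 ± 78.2), Aph1a (205 ± 18.3), Aph1b (101 ± 7.73), Psen2 (82.2 ± 9.41) and Psenen (67.8 ± 13.4), all as level per kb ± SD over 4 libraries. Adam17 and Furin overlapped in Control, as did Aph1b and Psen2, and Psen2 and Psenen. The other neighbours in the order did not overlap. Adam10 was 3.63 times Adam17 and 22.8 times Psenen per kb, and within gamma-secretase Ncstn was 9.39 times Psenen. Aph1a was 2.03 times Aph1b in Control, and Aph1c, at 5.69 ± 2.69, lay below all 8 genes. The order and the ratios also depend on the length used. With the longest transcript in place of all exons Aph1b moved from place 6 to place 8, and Adam10 was 2.42 times Adam17 and 13.5 times Psenen, Ncstn 6.87 times Psenen and Aph1a 2.41 times Aph1b. In Notch3IC the same order held except that Furin (428 ± 107) stood before Adam17 (403 ± 38.7).

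**Figure D3:**
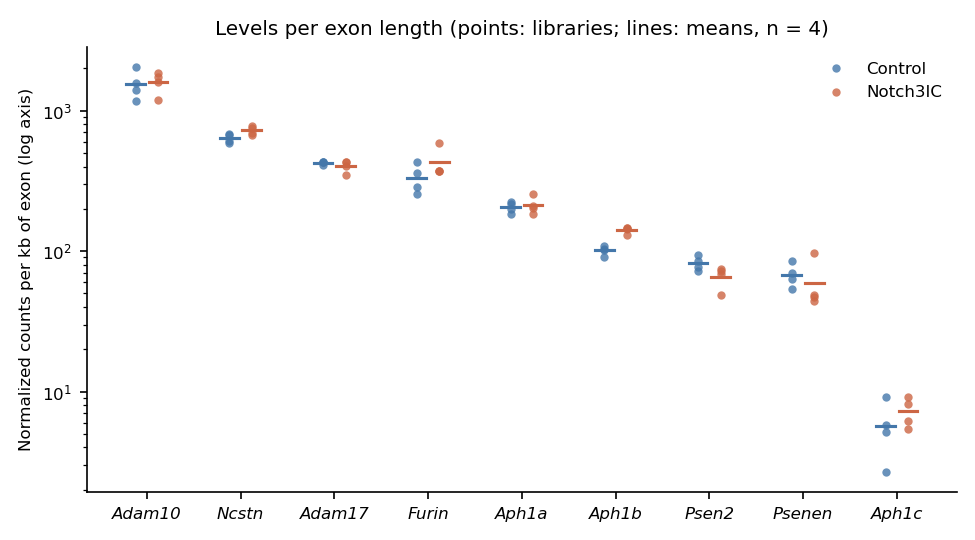
Normalized counts per kb of exon (vertical axis, log scale) in each library of Control (blue) and Notch3IC (orange) for the 8 genes and Aph1c, with lines at the means of 4 libraries. Levels in Control run from 1546 for Adam10 to 67.8 for Psenen, and Aph1c lies below all of them at 5.69.

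In GRCm38, by GENCODE M21, Aph1b lies at chr9:66775202-66795490 on the minus strand and Aph1c at chr9:66814994-66834726, also on the minus strand. Adam10 is on the same chromosome, at chr9:70678997-70780229. Psen2 (chr1:180227004-180263438) and Ncstn (chr1:172066013-172082795) share chromosome 1, and Furin (chr7:80388585-80405436) and Psenen (chr7:30561863-30563627) share chromosome 7. Adam17 is at chr12:21323509-21373632 and Aph1a at chr3:95893969-95898288. The reads were counted on another build, mm9, so these positions locate the genes and not the counted intervals. Adam10, Psen2 and Aph1b share no exon bases with another gene in this annotation, and the shared part was 1.29% for Furin, 4.35% for Adam17 and 4.91% for Ncstn, each with a gene on the opposite strand.

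The expressed domain acts on DNA through RBPJ, so the region before the Aph1b start site is shown. It comes from the RefSeq promoter table for GRCm38.p6, at chr9:66795491-66795673 on the minus strand, 5′ to 3′, and stops at the first base that GENCODE gives to the gene. Capitals would mark the letters TGGGAA or their reverse complement TTCCCA, the core of the RBPJ site.
Aph1b upstream: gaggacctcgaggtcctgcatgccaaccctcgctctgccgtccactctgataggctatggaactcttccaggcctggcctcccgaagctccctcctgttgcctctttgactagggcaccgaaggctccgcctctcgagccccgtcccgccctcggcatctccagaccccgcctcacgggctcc

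These letters do not occur in it, nor in the full window of 250 bases before to 50 after the RefSeq start. Among the windows of the other members they occurred in 1 each of Psen2, Aph1a and Psenen, and in none of Furin, Adam10, Adam17 or Ncstn. They occurred in 25.6% of all 32817 windows. The window of Nrarp, called higher, did not hold them, and no window was available for Hey1 or Heyl. That of Notch3 did not hold them either, but its higher counts may include reads of the insert. A match is a description of letters and not of binding, and no match says only that these letters are not in this window.

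Genes that act around the members were grouped by role. The Notch receptors that the proteases cut are Notch1 to Notch4, and 2 of the 4 were called higher. Besides Notch3, Notch1 rose by 5.72 on the log2 scale, with 49.2 ± 8.98 normalized counts in Control against 2614 ± 1522 (edgeR adjusted p = 0.0169), while Notch2, the most abundant at 6445 ± 1088 against 6328 ± 394, had a log2 fold change of -0.03 (edgeR adjusted p = 0.947). The 95% interval of Notch1, 4.13 to 7.32, lay above those of all 8 proteases and subunits. Notch4 had a log2 fold change of 1.35 (edgeR adjusted p = 0.150), and it was called with the block (edgeR adjusted p = 0.0780) and by DESeq2 (adjusted p = 0.0779). Of 5 ligands 3 were tested and 1 was called, Jag1, at 578 ± 222 against 4963 ± 3149 normalized counts (log2 fold change 3.10, edgeR adjusted p = 0.0349). The most abundant after it, Dll1, was low, at 27.8 ± 20.5 against 16.0 ± 2.37 (edgeR adjusted p = 0.531). Dll4, named after its values were seen, did not pass the filter on low counts, with 0, 0, 0 and 1 reads in the Control lines and 27, 0, 5 and 16 in the Notch3IC lines. Its adjusted p was 0.0789 with edgeR without the filter and 0.0209 with DESeq2.

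**Figure D4:**
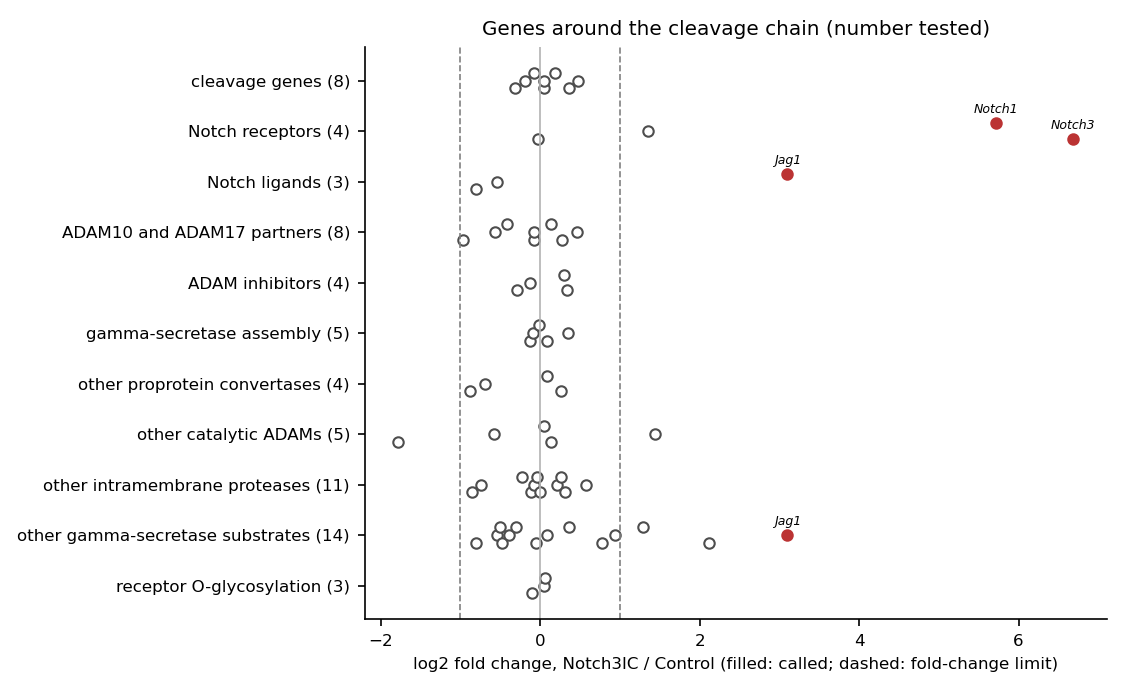
Log2 fold changes of Notch3IC over Control (horizontal axis) for the tested genes of each group, 1 point per gene, with called genes filled and named and the fold limits of -1 and 1 dashed. The 8 cleavage genes lie between -0.32 and 0.48, while Notch1 and Jag1 lie at 5.72 and 3.10. Notch3, whose counts may include reads of the insert, lies at 6.69.

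Other genes that help, inhibit or resemble the proteases formed 7 groups with 40 genes tested, and edgeR called 0 of the 40, against the 4.14% of all genes. Unadjusted p was under 0.05 for 9 of them, against 18.4% of all genes, DESeq2 called 2, and the median log2 fold change was -0.03. The partners that carry the ADAMs to the surface had 8 tested genes and a median of -0.08. The most abundant were Frmd8, which stabilises the iRhom and ADAM17 complex (log2 fold change -0.08, edgeR adjusted p = 0.819), and Rhbdf2, the iRhom that escorts ADAM17 (-0.41, edgeR adjusted p = 0.286). Rhbdf2 was lower in every set, and with the block it fell by 0.44 on the log2 scale (edgeR adjusted p = 0.0448). In that fit 3 of the 8 partners were lower past the adjusted p limit, against 12.1% of all genes, and 1 was higher, against 14.9%. DESeq2 called 1 partner, Tspan33, a tetraspanin of ADAM10, with an adjusted p of 0.0600.

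Metalloprotease inhibitors, grouped here as inhibitors of the ADAMs, had 4 tested genes, with a median of 0.09, and none had an unadjusted p under 0.05. Whether each of them acts on ADAM10 or ADAM17 was not tested. Timp3, the tissue inhibitor that acts on ADAM17, measured 46538 ± 10559 against 38188 ± 17922 normalized counts (log2 fold change -0.29, edgeR adjusted p = 0.701), and Timp2 measured 22916 ± 4381 against 21000 ± 6724 (edgeR adjusted p = 0.832). Of 5 tested genes of gamma-secretase assembly, the median was -0.02 and none had an unadjusted p under 0.05, and Rer1 and Tmed10, which act on the complex in the early secretory pathway, had log2 fold changes of -0.02 and 0.08 (edgeR adjusted p = 0.954 and 0.633).

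The other proprotein convertases, relatives of Furin, had 4 tested genes and a median of -0.30. Mbtps1, the site-1 protease, had a log2 fold change of 0.09 (edgeR adjusted p = 0.624) and Pcsk7 one of 0.27 (edgeR adjusted p = 0.185, and 0.0681 with the block). Among 5 other catalytic ADAMs the median was 0.05. Adam9 had a log2 fold change of 0.05 (edgeR adjusted p = 0.917). Adam12 measured 1726, 2118, 370 and 341 normalized counts in the Control lines and 3732, 2895, 2739 and 2948 in the Notch3IC lines. The groups did not overlap, yet the Control lines of Sets 1 and 2 were several times those of Sets 3 and 4. With condition alone the log2 fold change of Adam12 was 1.44 (edgeR adjusted p = 0.232), with the block it was 1.87 and called (edgeR adjusted p = 0.0674), and DESeq2 also called it (adjusted p = 0.0751). Adam33 had 25.5 ± 17.6 normalized counts in Control and 7.32 ± 4.04 in Notch3IC, with a log2 fold change of -1.78 (edgeR adjusted p = 0.209), and with the block it was called lower (-1.76, edgeR adjusted p = 0.0388).

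Other intramembrane proteases, which cut within the membrane as gamma-secretase does, had 11 tested genes with a median of -0.04, and 3 had an unadjusted p under 0.05. With the block Sppl2a and Sppl3 were higher and Rhbdl1 lower past the adjusted p limit (edgeR adjusted p = 0.0623, 0.0778 and 0.0337), and none was called. The most abundant were H13, signal peptide peptidase (log2 fold change 0.26, edgeR adjusted p = 0.263), and Zmpste24, which processes prelamin A (-0.04, edgeR adjusted p = 0.874). The enzymes of receptor O-glycosylation, which put sugars on the Notch ectodomain, had 3 tested genes with a median of 0.05 and none with an unadjusted p under 0.05. Pofut1 and Poglut1 had log2 fold changes of 0.05 and 0.07 (edgeR adjusted p = 0.899 and 0.745).

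Of 17 other substrates of gamma-secretase 14 were tested, 1 was called higher (Jag1, itself cut) and 0 lower, against 3.4% and 0.74% of all genes, with a median log2 fold change of 0.01. Efnb1, an ephrin ligand, passed only without the fold limit and rose by 0.94 on the log2 scale, from 7518 ± 1184 to 14459 ± 4432 normalized counts (edgeR adjusted p = 0.0720). Its ratio was 0.19 in Set 2 and 1.08 to 1.23 in the other sets. Lrp1, an endocytic receptor and the most abundant substrate, had a log2 fold change of 0.36 (edgeR adjusted p = 0.416). With the block 3 were called, which added Sdc3 and Nrg1 to Jag1, and 5 were higher and 2 lower past the adjusted p limit, among them Cd44, which was higher (edgeR adjusted p = 0.0262). Of all genes in that fit 5.19% were called higher, and 14.9% were higher and 12.1% lower past the adjusted p limit. Ngfr, the p75 neurotrophin receptor, was named after its values were seen. It had 0, 0, 2 and 0 counts in the Control lines and 81, 1, 1299 and 722 in the Notch3IC lines, and so did not pass the expression filter. Without that filter its edgeR adjusted p was 0.0325, and with DESeq2 it was 0.000113.

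For 5 genes of the other lists that passed, edgeR was also run without single sets. Notch1 had an adjusted p of 0.0653 without Set 1 and 1.96e-05 without Set 2, and Jag1 had 0.0716 and 0.00673. For Msln it was 0.0670 and 0.0332. Efnb1, at 0.158 and 0.0198, and Csf1r, at 0.128 and 0.0386, did not pass without Set 1. Without Set 3 or without Set 4 none of these 5 genes passed. The results of the block depended on single sets too. The genes past its adjusted p limit numbered 3367 with all sets, 84, 87 and 226 without Set 1, 3 or 4, and 5643 without Set 2. Without Set 1, Set 3 or Set 4 the blocked fit called 0 ovarian surface markers, 0 other ADAMs, 0 ligands and 1 substrate, and it called 1, 1 and 2 receptors. Without Set 2 it called 3 of the markers lower, 1 other ADAM and 1 ligand in each direction, 5 substrates higher and 1 lower, and 3 receptors higher. That fit also called 1 partner of the ADAMs and 1 other intramembrane protease lower, and 1 endothelial marker higher.

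The members did not vary together as a unit. Over the 8 libraries, which share sets and conditions, Pearson correlations of log2 levels between pairs of members ran from -0.85 for Furin and Adam17 to 0.85 for Adam17 and Psen2. The APH1 genes had 0.34 with each other, and Ncstn and Aph1b 0.80. These are descriptions over 8 libraries in which Set 1 stood apart, with Furin at its highest and Adam17 and Psen2 at their lowest there.

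The genes most like each member were sought among 10360 or 10361 tested genes with a mean of at least 100 normalized counts, by Pearson's r over the 8 libraries. Furin was followed most closely by 2900026A02Rik (r = 0.985) and Dctn1 (r = 0.984). Adam10 was followed by Cirbp (r = 0.993) and Stk11ip (r = 0.990). Adam17 had Mlx and Mitd1, both at r = 0.986. The log2 fold changes of these followers lay between -0.19 and 0.38. Psen2 had Muted (r = 0.984) and Dalrd3 (r = 0.979), and Ncstn had Dhrs4 (r = 0.990) and Hsd17b11 (r = 0.982), with log2 fold changes of 0.39 and 0.88 for the latter pair. For Psenen the closest were Fam46b (r = 0.988) and C1d (r = 0.975). Aph1a had no gene as close as the others had, with Prkcd (r = 0.936) and Naif1 (r = 0.926). Aph1b was followed by Ikbip (r = 0.984) and BC018242 (r = 0.982), whose own log2 fold changes were 0.76 and 0.86. With so many genes and 8 libraries a high r is reached by many genes. By rank correlation over the same libraries the choice differed, and 123 and 636 genes had a higher rho with Furin than 2900026A02Rik and Dctn1 had, and 277 and 19 a higher rho with Aph1b than Ikbip and BC018242. For the followers of the other members that number lay between 0 and 284.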

How the data were processed

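From each Control line and each Notch3IC line (Sets 1 to 4), polyadenylated RNA was sequenced from TruSeq libraries as single-end reads. The authors deposited 1 table per library of raw read counts per gene symbol, whole numbers without normalization. The submitters' processing notes name TopHat, Cufflinks, DESeq and the build mm9, and their versions, the annotation and the strandedness are not given in the sources used here. Of the 23284 symbols 17359 had a count.

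The members and the gene lists were chosen with earlier results of these data known. Notch3IC was compared with Control with edgeR 4.0.16 in R 4.3.3 (TMM, filterByExpr by condition, robust quasi-likelihood F test, two-sided), fitted on condition alone, and p-values were adjusted by Benjamini and Hochberg over the 12430 genes tested. Calls needed an adjusted p under 0.1 and a log2 fold change outside -1 to 1. To normalize, each count was divided by its library's TMM-scaled size, then brought back to the average library size. Ratios within a set used a pseudocount of 0.5 and had no test, since a set holds 1 library per condition.

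The study describes the lines of a set as matched, and the deviations of its libraries from the group means had correlations of 0.84, 0.34, 0.62 and 0.39 (Sets 1 to 4). Libraries of different sets gave -0.57 to 0.43, values that the centring on group means lowers when those within sets are positive. The sets were therefore taken to pair the libraries, and the block is given where it changed a result for a member, and for other genes where it is named. With condition alone the p-values measure the spread between separate infections of 1 cell line. With the set as a block they measure how the difference between Notch3IC and Control varied from set to set.

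Genes named are the members, the label-check genes, the called genes and the 2 most abundant tested genes of each list, and the 2 genes most correlated with each member. Other genes were named after their values were seen. Lists were described by counts and medians, with no set test. In the files, 6 listed genes carry an older symbol, such as Pion for Gsap and H13 for Hm13, and were matched through RefSeq synonyms. The fits were tested on simulated counts.

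Exon lengths, positions, overlaps and coding sequences are from GENCODE M21 and promoter windows from RefSeq (GRCm38.p6). Figures were drawn with Matplotlib 3.10.9 in Python 3.11.15. The alternatives comprised upper-quartile and RLE factors, DESeq2 1.42.0, library totals, no expression filter, at least 10 counts in every library, the set as a block, other thresholds, a pseudocount of 5, the longest transcript, rank correlation, and leaving out each library or set. The block with a set left out and the block without the fold limit were chosen after seeing the data.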

Additional observations from a re-analysis of the deposited data

Results flagged for a closer look

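In groups of 4 libraries, single libraries stood far from the rest of their group for 4 members. Furin was high in the Notch3IC line of Set 1, at 5404 normalized counts against 3429 to 3435 in the other lines. Adam17 was low in the Control line of Set 1, at 2911 against 3083 to 3106. Aph1b was low in the Notch3IC line of Set 2, at 669 against 743 to 750, and Psenen was high there, at 124 against 56.6 to 62.5. Chance marks about 1 in 20 groups, and of 18 groups examined 4 stood out where 0.9 would be expected.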

How the results depend on the processing

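No member was called under any alternative that kept the fold limit, so the 0 higher and 0 lower held in all leave-outs. Without the limit 1 was higher, and with the replicate block and no limit 2 were higher and 1 lower. Among all genes 423 were called higher and 92 lower. The counts were 708 and 192 with DESeq2, 645 and 315 with the replicate block, and 1858 and 1509 with the block and no fold limit. The lower count was 48 at an adjusted p under 0.05 and 210 without the fold limit. Leaving out each library or set gave 0 to 702 higher and 0 to 305 lower, and in the blocked fit 46 and 23 without Set 1, 904 and 426 without Set 2, 59 and 22 without Set 3 and 129 and 30 without Set 4. Without Set 3 there was 1 call in all and without Set 4 none, by edgeR, where 1101 and 1011 genes had an unadjusted p under 0.05. With condition alone, leave-outs by edgeR called 0 to 3 receptors, 0 to 1 ligands and 0 to 4 substrates higher and 0 to 3 ovarian surface markers lower. With the block and a set left out, these were 1 to 3, 0 to 1, 1 to 5 and 0 to 3. DESeq2 called 2 ligands, 4 substrates and 4 markers, and edgeR without the expression filter 2 ligands and 2 substrates. The block moved Furin (0.37) and Psen2 (-0.33) past the adjusted p limit and no other member across it, and without Set 2 Furin (0.47), Psen2 (-0.32) and Ncstn (0.23) passed with it. Leave-outs gave Aph1b 0.41 to 0.55, Furin 0.18 to 0.52, Psen2 -0.39 to -0.20, Ncstn 0.12 to 0.24, Psenen -0.53 to -0.07, Adam17 -0.12 to -0.01, Adam10 -0.07 to 0.20 and Aph1a -0.05 to 0.11, on the log2 scale. In the blocked fit with a set left out Aph1b was 0.41, 0.48 and 0.48 without Sets 1, 3 and 4, with adjusted p of 0.128, 0.152 and 0.149, and Aph1a was -0.015 without Set 1 and -0.010 without Set 3. Adam10 changed sign without the Control line of Set 1 (-0.066) or the Notch3IC line of Set 2 (-0.036), and Aph1a without the Control line of Set 1 (-0.008), the Notch3IC line of Set 3 (-0.052), Set 1 (-0.002) or Set 3 (-0.011). A leave-out also has fewer libraries, and the cause of these changes was not tested. Psenen had the fewest reads, 54 to 101 per library.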
